A study of Macaca mulatta with 43 samples.

Results

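On the Rhesus Macaque Genome Array, 5 probesets were annotated as USP14. These were all those with USP14 as single gene symbol in the platform's probe table, out of 52865 probesets there and 13705 gene symbols tested. They are MmuAffx.949.1.S1_x_at, MmugDNA.2571.1.S1_at, MmugDNA.2571.1.S1_s_at, MmugDNA.2571.1.S1_x_at and MmugDNA.5184.1.S1_s_at. Gene expression was measured in medial prefrontal cortex (Brodmann areas 24, 25 and 32, pooled within an animal) of 43 adult male rhesus macaques aged 5 to 11 years, with 1 array per animal. Drinking was first established in the 32 drinkers by schedule-induced polydipsia, after which they had 22 h of access per day to water and 4% (w/v) ethanol for 1 year, and the 11 controls drank water and a daily maltose dextran solution matched in calories to a drinker. Cohort 4 held 11 drinkers and no control, cohort 5 held 8 drinkers and 5 controls, cohort 7a held 8 drinkers and 4 controls, and cohort 7b held 5 drinkers and 2 controls. RNA of cohorts 4 and 5 was prepared with the RNeasy Mini kit and that of cohorts 7a and 7b with the AllPrep DNA/RNA/miRNA Universal kit. Per the study's methods, cohorts 4 and 5 also went through array processing before cohorts 7a and 7b. Neither the kit nor this order of array processing can therefore be told apart from the set of cohorts. All values are RMA values, a normalized probeset signal on the log2 scale, so differences are in log2 units. Arrays are numbered 1 to 43 as the submitters numbered them.

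USP14 is a deubiquitinase, an enzyme that removes ubiquitin chains from proteins. It is docked on the regulatory particle of the proteasome, becomes active there, and trims chains from substrates as they are delivered, so that ubiquitin is recycled rather than degraded. In mice, loss of Usp14 is known to cause ataxia with defects at synapses.

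All 5 probesets spanned a very wide range between animals, not 1 of them alone. The widest was MmugDNA.2571.1.S1_x_at, with an SD of 1.58 over the 43 arrays and a range from 4.40 to 11.06, a 101-fold span. MmugDNA.2571.1.S1_at had an SD of 1.58 too, MmugDNA.2571.1.S1_s_at of 1.56, MmuAffx.949.1.S1_x_at of 1.50 and MmugDNA.5184.1.S1_s_at of 1.21. Against a median SD of 0.22 over the 23815 tested probesets, the first 4 lay between the 12th and the 18th largest SD, and MmugDNA.5184.1.S1_s_at was the 64th. All 5 passed the filter on low values. Only 1 value was under 3.5 log2 units, in array 2 on MmuAffx.949.1.S1_x_at.

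The names of the probesets limit how far they count as separate measurements. The names of 3 of them hold the same target, MmugDNA.2571.1.S1, so these share a source sequence. In the manufacturer's naming, the endings _s_at and _x_at mark probes that also match, or closely resemble, other transcripts, and only MmugDNA.2571.1.S1_at lacks such an ending. In the probe table, MmuAffx.949.1.S1_x_at carries the same GenBank source record as MmuAffx.949.1.A1_at, the probeset named HBB (beta-globin, a chain of hemoglobin). The target names of this pair differ in the code S1 or A1, by which the manufacturer marks orientation. Probe sequences were not used here, and which transcripts the 5 probesets detected was not tested. They are therefore called the 5 probesets annotated as USP14.

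The widest of the 5 probesets annotated as USP14 was highest in a few controls. In cohort 5 controls, MmugDNA.2571.1.S1_x_at read 5.96, 5.41, 10.67, 7.36 and 10.31 in arrays 12 to 16. In cohort 7b controls it read 8.64 and 11.06 in arrays 37 and 38. These include the highest values of all arrays, and the 5 controls of cohort 5 were themselves split, with arrays 14 and 16 well above the other 3. In cohort 7a controls the values were 5.66, 6.84, 6.09 and 6.04, inside the range of the drinkers of the same cohort. The top of that range was drinker 32 alone, at 7.89. The other drinkers of cohort 7a read 4.70 to 5.68, and 1 of all 8 lay above the median of these controls.

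Among drinkers, MmugDNA.2571.1.S1_x_at lay mostly lower. Drinkers had a smaller SD than controls in cohort 5 (1.09 against 2.44) and cohort 7b (0.81 against 1.71), but a larger one in cohort 7a (1.03 against 0.49). The lowest, median and highest values of drinkers were 4.40, 5.53 and 7.54 in cohort 4, 4.89, 6.29 and 8.23 in cohort 5, and 4.70, 5.10 and 7.89 in cohort 7a. In cohort 7b the 5 drinkers read 6.76, 7.49, 7.40, 5.72 and 5.95, all below both controls of that cohort. One drinker stood high in each of the first 3 cohorts, array 1 in cohort 4, array 17 in cohort 5 and array 32 in cohort 7a.

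**Figure D1:**
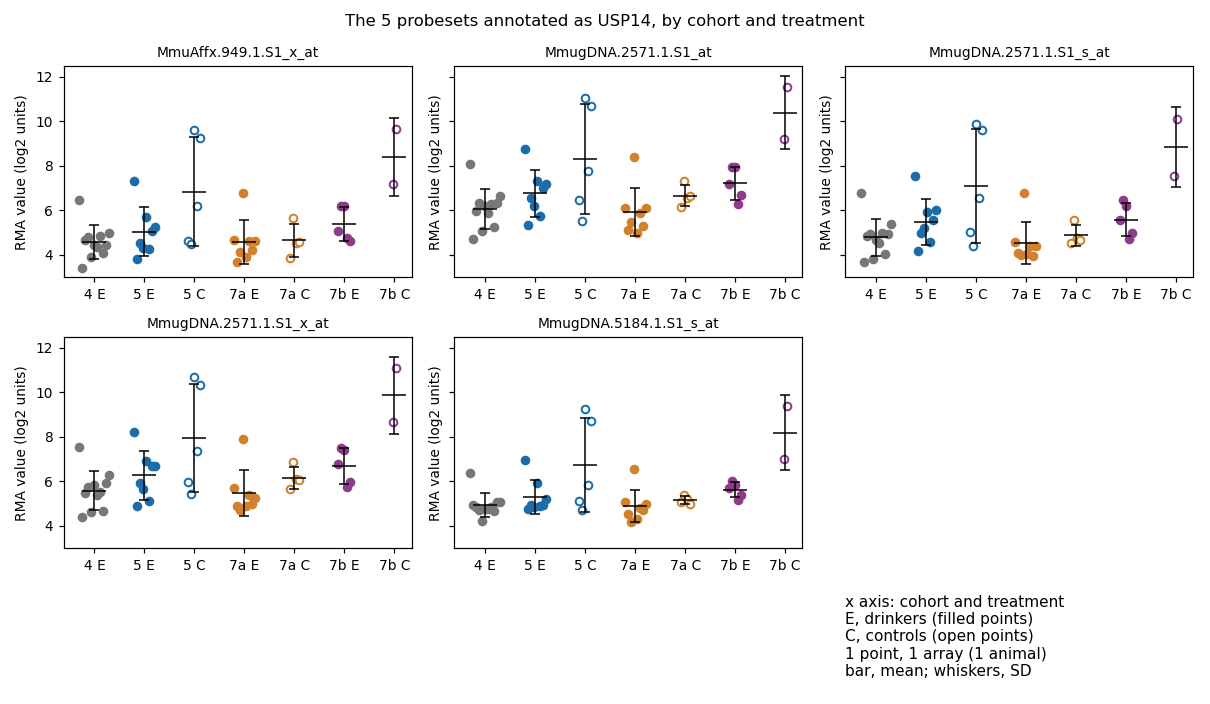
RMA value in log2 units (y axis) of the 5 probesets annotated as USP14, by cohort and treatment (x axis; E, drinkers, filled points; C, controls, open points; 1 point is 1 array, bars are means and whiskers SD). The same 4 controls, 2 of cohort 5 and both of cohort 7b, are among the 5 highest arrays on every probeset. The 4 controls of cohort 7a lie within the range of the drinkers. In that cohort drinker 32 alone lies above the highest control.

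The other 4 probesets annotated as USP14 put the same animals at the top. The 3 highest arrays were the same for all 5 probesets, controls 14, 16 and 38. The 5 highest arrays were also the same for all 5, and added control 37 and drinker 17. On 4 of the probesets 4 controls exceeded every drinker, and on MmuAffx.949.1.S1_x_at 3 did, with control 37 at 7.15 under drinker 17 at 7.30. The remaining 7 controls lay within the range of the drinkers on all 5 probesets.

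USP14 was chosen by its difference between drinkers and controls and by the wide range of a probeset between animals, so both are given as a description, without a test. Drinkers minus controls was -1.75 log2 units on MmugDNA.2571.1.S1_x_at (SE 0.47; drinkers 5.89 ± 1.03, SD, n = 32; controls 7.64 ± 2.15, SD, n = 11) and -1.70 on MmugDNA.2571.1.S1_at (SE 0.47). It was -1.58 on MmugDNA.2571.1.S1_s_at (SE 0.48), -1.51 on MmuAffx.949.1.S1_x_at (SE 0.46) and -1.30 on MmugDNA.5184.1.S1_s_at (SE 0.36). These SE come from the limma model, which assumes equal spread in drinkers and controls. With each group's own SD, as in the differences by cohort below, the SE were larger. They were 0.67, 0.68, 0.71, 0.69 and 0.57 for the 5 probesets in that order. All 5 were therefore lower on average in drinkers, in a contrast in which 10.4% of all tested probesets passed the test as lower. The size of the difference turned on how the few high controls were weighted: with group medians in place of means it ranged from -0.46 to -1.14 over the 5 probesets, and with means taken on the linear scale from -2.27 to -2.83. On MmugDNA.2571.1.S1_x_at, 6 of 32 drinkers lay above the median of the controls. In whole tissue, fewer cells of a type and less RNA per cell cannot be told apart.

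Within cohorts, the difference was largest in cohort 7b, with only 2 controls, and smallest in cohort 7a. On MmugDNA.2571.1.S1_x_at drinkers minus controls was -3.19 (SE 1.27) in cohort 7b, with 5 drinkers and 2 controls, -1.68 (SE 1.16) in cohort 5 and -0.70 (SE 0.44) in cohort 7a. MmugDNA.5184.1.S1_s_at had the same order of values at -2.57 (SE 1.19), -1.43 (SE 0.98) and -0.26 (SE 0.27). In cohort 7b drinkers and controls did not overlap on any of the 5 probesets, as was the case, with drinkers lower, for 27.5% of all tested probesets in that cohort. In cohorts 5 and 7a the groups overlapped on all 5, and 0.063% and 6.36% of tested probesets had all drinkers below all controls there. Without cohort 7b the pooled difference ranged from -1.003 to -1.41 over the 5 probesets.

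A change of the drinker-control difference between sets of cohorts was tested in a limma model of the 7 cohort-by-treatment groups. The contrast set the mean of the differences in cohorts 7a and 7b against the difference in cohort 5. This contrast is uncorrelated with the pooled difference only if spread is equal in all groups. Spread was not equal: the SD of controls on MmugDNA.2571.1.S1_x_at was 2.44 (cohort 5), 0.49 (cohort 7a) and 1.71 (cohort 7b, n = 2). Independence from the difference by which USP14 was chosen can therefore not be assumed. None of the 5 probesets passed, and 31.4% of all tested probesets did. The estimates ranged from -0.42 on MmugDNA.2571.1.S1_at to 0.25 on MmuAffx.949.1.S1_x_at, with SE of 0.68 to 0.89 log2 units and limma adjusted p of 0.765 to 0.991. On MmugDNA.2571.1.S1_x_at the 95% interval of this change ran from -2.04 to 1.52.

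Among drinkers alone, levels of the 5 probesets annotated as USP14 did not pass a test between cohorts prepared with the same kit. Cohort 4 minus cohort 5 ranged from -0.37 on MmugDNA.5184.1.S1_s_at to -0.72 on MmugDNA.2571.1.S1_s_at, with a limma adjusted p of 1.00 for all 5. In that comparison 0 of 23815 probesets (0%) passed and 895 had an unadjusted limma p under 0.05, and the exact permutation test gave unadjusted p of 0.117 to 0.327 for the 5. Cohort 7a minus cohort 7b was larger, from -0.72 on MmugDNA.5184.1.S1_s_at to -1.29 on MmugDNA.2571.1.S1_at, with limma adjusted p of 0.207 to 0.464, where 11.7% of tested probesets passed. All 5 estimates of each comparison had the same sign, but the 5 probesets varied together and are not independent observations.

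The 5 probesets rose and fell together from array to array. After each value was centred on the mean of its cohort-by-treatment group, Pearson r for the 10 pairs ranged from 0.936 to 0.996 in the 24 arrays of cohorts 4 and 5 (Spearman rho from 0.846 to 0.991). In the 19 arrays of cohorts 7a and 7b it ranged from 0.907 to 0.992 (rho from 0.877 to 0.968). All 20 relations passed the two-sided permutation test, with adjusted p of 4.0e-05 or less for r and 5.0e-05 or less for rho. The smallest unadjusted p that the permutations could give was 1e-05. Probesets that share a target name come from a common source sequence, so a pass between them was likely beforehand. The 20 relations reuse the same 5 probesets and are not independent of each other. Without the 2 arrays farthest from the median of the first probeset of a pair, r was still 0.900 to 0.995 and 0.800 to 0.982 in these sets of arrays. In the 32 drinkers alone, which leaves out the high controls, r was 0.891 to 0.986. The agreement is not restricted to the probesets that share a target name, since MmuAffx.949.1.S1_x_at and MmugDNA.2571.1.S1_at reached 0.984 and 0.976 in the 2 sets of arrays.

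**Figure D2:**
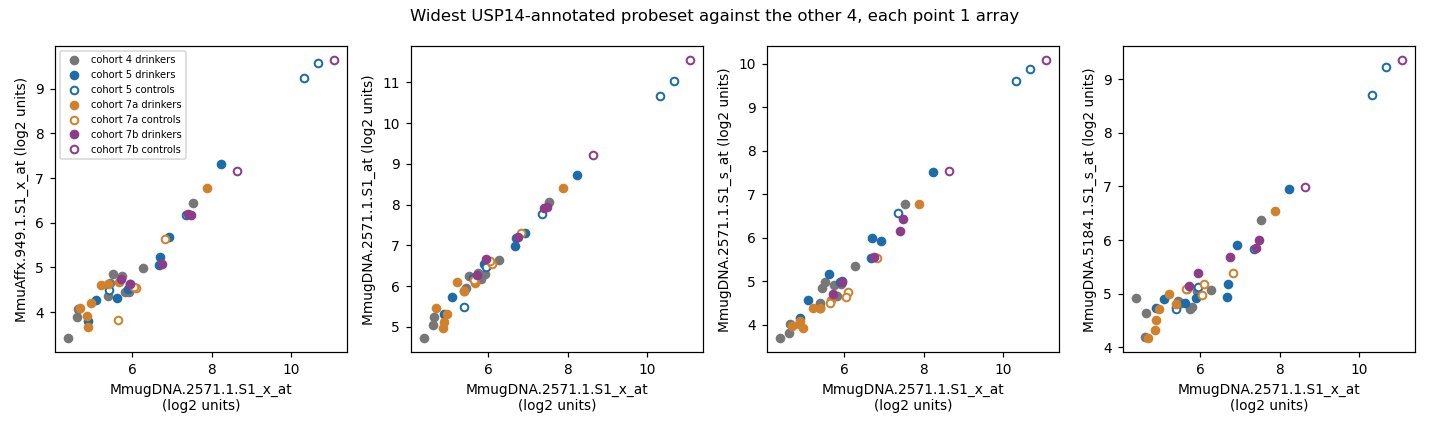
Each array's value on the widest probeset, MmugDNA.2571.1.S1_x_at (x axis, log2 units), against its value on each of the other 4 probesets annotated as USP14 (y axes, log2 units), coloured by cohort with open points for controls. The points follow 1 line in each panel, with 3 controls far up it, and the slope is shallower for MmugDNA.5184.1.S1_s_at.

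The probesets differed in level, and MmugDNA.5184.1.S1_s_at also in the size of its swings. Mean levels over the 43 arrays were 6.81 on MmugDNA.2571.1.S1_at and 6.34 on MmugDNA.2571.1.S1_x_at. They were 5.42 on MmugDNA.2571.1.S1_s_at, 5.20 on MmuAffx.949.1.S1_x_at and 5.45 on MmugDNA.5184.1.S1_s_at. The SD of the difference between MmugDNA.2571.1.S1_at and MmugDNA.2571.1.S1_x_at within an array was 0.14 in cohorts 4 and 5, against 0.55 between MmugDNA.2571.1.S1_x_at and MmugDNA.5184.1.S1_s_at. In the same arrays, MmugDNA.5184.1.S1_s_at moved by 0.74 log2 units for each unit of MmugDNA.2571.1.S1_x_at, and in cohorts 7a and 7b by 0.68. MmugDNA.2571.1.S1_x_at moved by 0.98 and 1.05 units for each unit of MmugDNA.2571.1.S1_s_at.

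Outside the 5 probesets, the most similar gene was an alpha-globin. Over all 43 group-centred arrays, the probeset named HBA (alpha-globin, the partner chain of beta-globin in hemoglobin) had an r of 0.75 with MmugDNA.2571.1.S1_x_at and of 0.79 with the mean of the other 4 probesets. It was the only one of 23810 tested probesets not annotated as USP14 with an r over 0.6 to the widest probeset. MON1B followed at 0.53, BEND4 at 0.52, ZNF697 at 0.52 and PIK3C2B at 0.50. For the mean of the other 4 probesets the order was HBA, MON1B (0.55), BEND4 (0.52), BCL6B (0.50) and ZNF697 (0.49). These genes were found by searching all probesets, so no test is given, and the middle 95% of all r lay between -0.31 and 0.31.

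The likeness to HBA came mainly from the controls. Its r with MmugDNA.2571.1.S1_x_at was 0.82 in cohorts 4 and 5, 0.58 in cohorts 7a and 7b, and 0.93 in the 11 controls. In the 32 drinkers it was 0.54, where HBA ranked only 79th among the probesets not annotated as USP14, while r between the 5 probesets themselves stayed at 0.891 or more. HBA read 7.90 in control 14, 7.37 in control 16, 8.05 in control 38 and 6.96 in control 37. These were the 4 highest HBA values of the 43 arrays, in the 4 controls that were also highest on the 5 probesets. Drinkers ranged from 6.23 to 6.72 on HBA (mean 6.49 ± 0.14, SD, n = 32) and controls averaged 6.95 ± 0.59 (SD, n = 11). With the HBA value added to the model, an alternative chosen after the data were seen, drinkers minus controls on the 5 probesets lay between -0.20 and 0.03 (SE 0.24 to 0.37), and with cohort added as well between -0.30 and -0.05 (SE 0.21 to 0.33). HBA was found by a search for likeness to these 5 on group-centred values, and was itself lower on average in drinkers. Why the difference was smaller with HBA in the model was not tested.

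**Figure D3:**
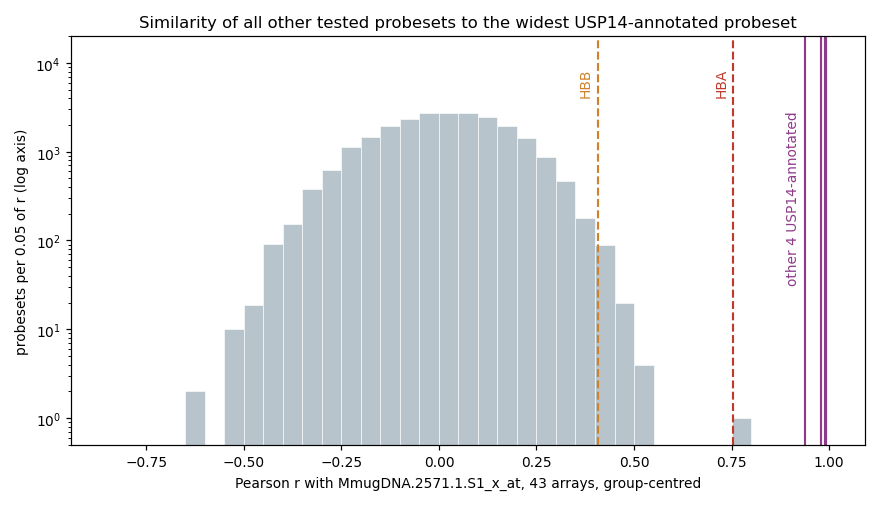
Number of tested probesets (y axis, log scale) by their Pearson r with MmugDNA.2571.1.S1_x_at over 43 group-centred arrays (x axis, bins of 0.05). Solid lines mark the other 4 probesets annotated as USP14, all at 0.938 or above, and dashed lines mark HBA at 0.75 and HBB at 0.41.

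The HBB probeset, which shares a source record with MmuAffx.949.1.S1_x_at, followed the 5 probesets in 1 set of arrays and not in the other. In cohorts 4 and 5 its r with them was 0.718 to 0.835 (permutation test, adjusted p of 0.0236 to 0.0430 over 10 relations; rho 0.490 to 0.613, adjusted p of 0.119). Without the 2 farthest arrays r was 0.548 to 0.694 and none of the 5 passed (adjusted p of 0.227 to 0.407). The arrays left out were control 14 with control 13 or 16. Centred within sets of cohorts in place of groups, r was 0.796 to 0.878 (adjusted p of 0.0004 to 0.0009). In cohorts 7a and 7b its r was -0.41 to -0.36 (adjusted p of 0.107 to 0.132; rho -0.26 to -0.11, adjusted p of 0.457 to 0.619), -0.11 to 0.02 without the 2 farthest arrays, and 0.09 to 0.15 when centred within the set (adjusted p of 0.653 to 0.725). HBB read 6.81 and 6.43 in controls 14 and 16, its 2 highest values. In control 38, the highest of all on 5 of 5 probesets, HBB read 6.16, close to the 6.15 of drinker 31.

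**Figure D4:**
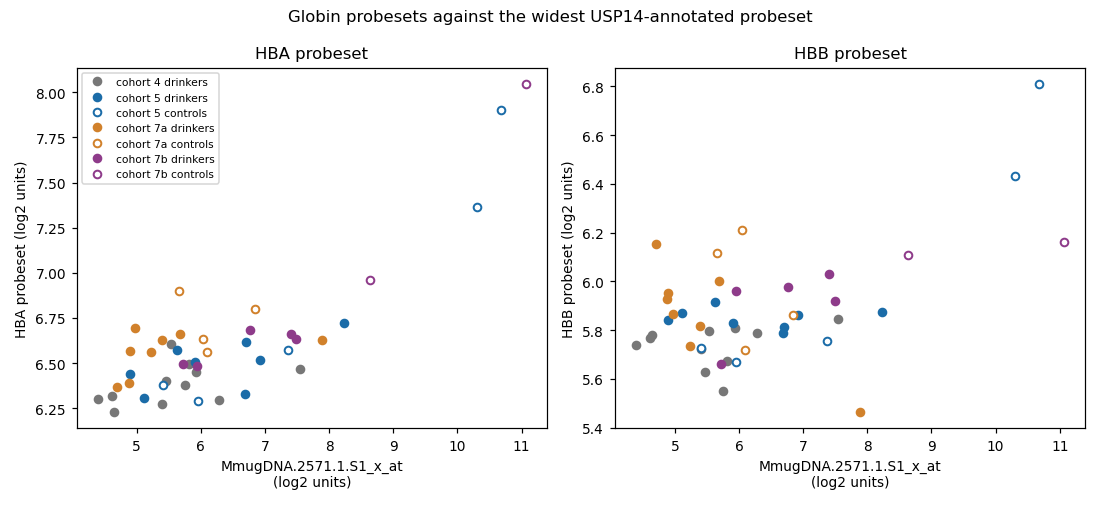
HBA (left) and HBB (right) probeset values in log2 units (y axes) against MmugDNA.2571.1.S1_x_at (x axis, log2 units), 1 point per array, coloured by cohort with open points for controls. HBA is highest in the 4 high controls, whereas HBB is highest in controls 14 and 16 and reads 6.16 in control 38, and among drinkers neither spans more than 0.69 log2 units.

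Other genes of red blood cells had low correlations with the widest probeset, but most read at low levels and all varied little. Of 13 such genes listed after the globin values were seen, 8 had a tested probeset. Beside HBA and HBB these were HBE1 and HBG2 (embryonic and fetal globins), ALAS2 (heme synthesis), AHSP (a chaperone of alpha-globin), EPB42 (a red-cell membrane protein) and KLF1 (an erythroid transcription factor). The r of these 6 genes with MmugDNA.2571.1.S1_x_at lay between -0.22 and 0.03. Their medians ran from 3.58 (HBG2, under 3.5 in 12 arrays) to 4.82 (ALAS2), apart from the ALAS2 probeset MmugDNA.4681.1.S1_at at 7.02. Their SD were 0.12 (AHSP) to 0.20 (ALAS2), under the median SD of 0.22 of all tested probesets. With so little spread, these r cannot show whether blood content differed between animals. The summed level of the 6 genes, to which MmugDNA.4681.1.S1_at gave the most, was 7.63 to 8.14 in drinkers and 7.88 to 8.11 in controls. Animals were perfused with buffer at necropsy, per the study's methods. The part of blood in the values of the 5 probesets was not tested.

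Markers of brain cell types were present and had low correlations with the widest probeset. Of 18 marker genes, 12 had a tested probeset, among them SYT1 (neurons), up to 13.55, SLC17A7 (excitatory neurons), GFAP (astrocytes), MBP (oligodendrocytes) and CSF1R (microglia). Apart from HBB, r of their 21 probesets with MmugDNA.2571.1.S1_x_at lay between -0.35 (GFAP) and 0.23 (GAD1). Drinkers minus controls on these 21 probesets ranged from -0.43 (GAD1) to 0.24 (GFAP). Probesets of 1 gene differed, with -0.43, -0.41 and 0.00 for the 3 of GAD1 (inhibitory neurons), -0.42 and -0.01 for the 2 of AIF1 (microglia) and -0.42 and -0.12 for the 2 of MBP. The part of cell types in the drinker-control differences was not tested. The measured neighbours of USP14 in the genome were no closer. In RefSeq gene order these are GREB1L and ROCK1 on one side and COLEC12 and CETN1 on the other, and their r with MmugDNA.2571.1.S1_x_at was -0.13 for GREB1L, between -0.05 and 0.24 for the 3 probesets of ROCK1, 0.16 for COLEC12 and -0.27 for CETN1.

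None of the measured partners of USP14 at the proteasome passed the limma test between drinkers and controls, 0 of 4 where 16% of all tested probesets did. UCHL5, the other deubiquitinase that is bound reversibly there, read 11.17 ± 0.07 in drinkers and 11.11 ± 0.13 in controls (SD; difference 0.06, SE 0.04, limma adjusted p = 0.215). ADRM1, the ubiquitin receptor that docks UCHL5, differed by -0.11 (SE 0.17, adjusted p = 0.706), PSMD1, the scaffold subunit on which ADRM1 sits, by -0.11 (SE 0.08, adjusted p = 0.372) and PSMD2, the scaffold subunit on which USP14 docks, by -0.02 (SE 0.11, adjusted p = 0.921). PSMD14, the intrinsic deubiquitinase, had no probeset with that single symbol.

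Among 67 listed genes of the ubiquitin-proteasome system other than USP14, 44 had a tested probeset. In drinkers 3 were higher and 11 lower, and 30 did not pass, with a median difference of -0.07. Over all 23815 tested probesets 5.57% were higher and 10.4% lower (16% together), with a median of -0.04. Of the 9 measured subunits of the core particle, the chamber where proteins are cut, 6 were lower, including PSMB7 (-0.33, SE 0.10, adjusted p = 0.0274), PSMA2 (-0.32, SE 0.07, adjusted p = 0.00182) and PSMB6 (-0.29, SE 0.09, adjusted p = 0.0165). Of 5 measured ATPases of the regulatory particle, which unfold substrates, PSMC6 (-0.40) and PSMC2 (-0.13) were lower and PSMC5 (0.11) was higher. Of 6 other regulatory subunits PSMD6 (-0.19) was lower.

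Of 10 assembly factors, activators and inhibitors, NFE2L1 (0.29), the transcription factor of proteasome genes, was higher, while the chaperones PSMG2 (-0.19) and PSMD9 (-0.17) were lower. HUWE1 (0.25), a ubiquitin ligase, was the only 1 of 5 shuttle factors and ligases to pass, and none of 5 recycling genes did. With cohort as a block 3 of these 5 passed, in a model in which 2804 of all 23815 tested probesets were called higher and 5086 lower. UBA1 (0.41, limma adjusted p = 5.32e-05), the main ubiquitin-activating enzyme, and the deubiquitinase OTUB1 (0.24, adjusted p = 0.000612) were higher. The deubiquitinase UCHL3 (-0.25, adjusted p = 0.00237) was lower. These 3 were named after their values were seen. The counts rested on few controls: without control 37 or without control 38 of cohort 7b 1 listed gene was called lower, without control 27 or 28 of cohort 7a there were 6, and without the 11 drinkers of cohort 4 there were 5. A measure of RNA quality differed between the groups as well. The 3′ minus 5′ value of actin, from the array's control probesets, was 1.26 ± 0.21 in drinkers and 0.82 ± 0.06 in controls of cohort 7a (SD, n = 8 and 4), 1.10 ± 0.37 and 0.78 ± 0.04 in cohort 7b (n = 5 and 2), and 4.54 ± 0.20 and 4.50 ± 0.21 in cohort 5 (n = 8 and 5). For GAPDH the values were 1.27 ± 0.13 and 1.08 ± 0.08 in cohort 7a, 0.91 ± 0.28 and 1.05 ± 0.13 in cohort 7b, where drinkers were the lower group, and 2.31 ± 0.16 and 2.23 ± 0.17 in cohort 5. With cohort as a block 16 listed genes were called lower and 6 higher, and with the actin value added to that model 8 and 6. Counts over all tested probesets were not taken with the actin value, without cohort 4 or with an array left out. The listed counts in those settings therefore have no background beside them.

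**Figure D5:**
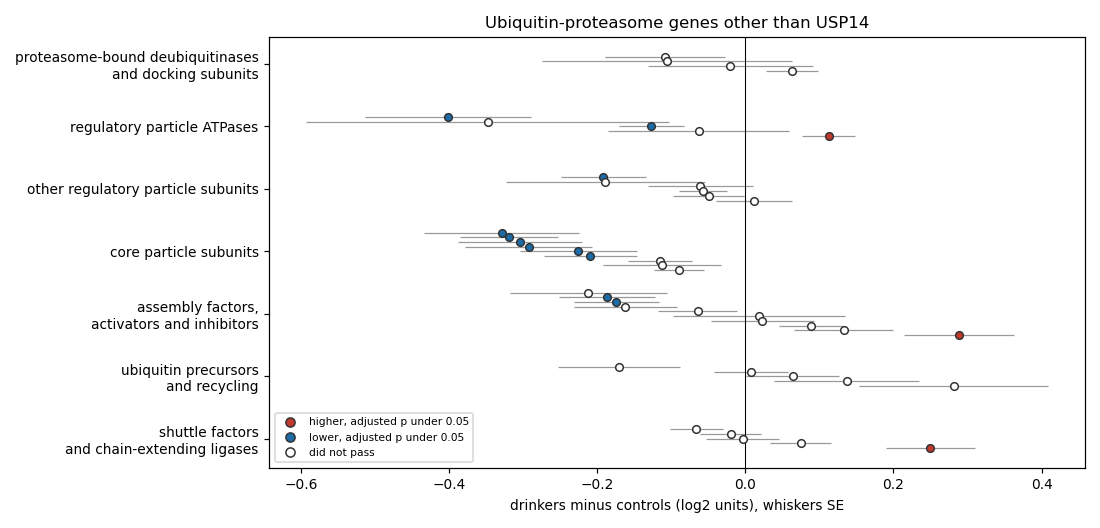
Drinkers minus controls in log2 units (x axis, whiskers SE) for the 44 measured ubiquitin-proteasome genes by list (y axis), red where higher and blue where lower at a limma adjusted p under 0.05. Differences lie between -0.40 (PSMC6) and 0.29 (NFE2L1), and 6 of the 9 core particle subunits are lower.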

How the data were processed

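The deposited table holds log2 expression levels from RMA, which the authors computed with the affy package from scanned GeneChip Rhesus Macaque Genome Arrays, normalized over the 43 arrays together and without adjustment for batch in the table used here. The submitters' processing notes name RMA and affy without a version. Genes were named from the platform's probe table, whose annotation can be old. Of 52865 probesets, 99 controls, 27449 without a symbol and 361 with several symbols were left out. Probesets under 3.5 log2 units in at least 80% of arrays were then removed, after the study's methods, leaving 23815 probesets of 13705 symbols. Replicates are animals, and their number, above all of controls, limits the precision.

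Models were fitted across all tested probesets with limma 3.58.1 in R 4.3.3, with Benjamini-Hochberg adjustment and a threshold of 0.05: drinkers against controls (treatment as the only term), and contrasts between the 7 cohort-by-treatment groups. Scripts were tested on simulated data. Correlations used values centred within those groups and 100000 permutations within groups (numpy 2.4.6). Each listed gene was represented by its probeset with the highest mean.

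Named are all USP14 probesets, all deubiquitinases and docking subunits at the proteasome, from each other list up to 3 of the largest called differences with 1 sign in cohorts 5, 7a and 7b, the 5 genes most similar to the widest probeset and to the mean of the others, 2 measured neighbours on each side in RefSeq gene order (assembly T2T-MMU8v2.0), and markers. PSMD9, UBA1, OTUB1 and UCHL3 were added after their values were seen, and some listed genes are not reported here. The members and lists were chosen with earlier results of these data known. Alternatives were a cohort block, an actin 3′ minus 5′ covariate, other centring, filters and probeset choices, and leaving out arrays or cohorts. RNA integrity and processing batch were not used here.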

Additional observations from a re-analysis of the deposited data

Results flagged for a closer look

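Array 32, a drinker of cohort 7a, was the highest of its 8 arrays on all 5 probesets annotated as USP14. Its gap to the next array was a large share of the group's range. The share was 0.678 on MmuAffx.949.1.S1_x_at, 0.672 on MmugDNA.2571.1.S1_at, 0.778 on MmugDNA.2571.1.S1_s_at, 0.691 on MmugDNA.2571.1.S1_x_at and 0.612 on MmugDNA.5184.1.S1_s_at. On MmugDNA.2571.1.S1_x_at this array read 7.89, while the other 7 drinkers of the cohort read 4.70 to 5.68. Its HBA value was 6.63, within the range of the drinkers, and its HBB value of 5.46 was the lowest of the 43 arrays. In all, 25 combinations of probeset and group were examined, and the 5 probesets are not independent. USP14 was chosen partly for its wide range between animals, so these shares are given as a description, without a test.

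For 9 named ubiquitin-proteasome genes the drinker-control difference itself differed between cohorts 7a and 7b and cohort 5 by the limma contrast, as it did for 31.4% of all tested probesets. It was more negative in cohorts 7a and 7b by -0.27 for PSMC2 (adjusted p = 0.00527), -0.66 for PSMC6 (adjusted p = 0.000937), -0.38 for PSMD6 (adjusted p = 0.000957), -0.63 for PSMA2 (adjusted p = 2.77e-07), -0.47 for PSMB6 (adjusted p = 1.70e-05), -0.41 for PSMB7 (adjusted p = 0.000381) and -0.35 for PSMG2 (adjusted p = 0.00347). It was more positive by 0.59 for NFE2L1 (adjusted p = 8.93e-05) and 0.38 for HUWE1 (adjusted p = 0.000252). In cohort 5 the PSMA2 difference was -0.02, in cohort 7a -0.50 and in cohort 7b -0.80. The kit, the order of array processing and the actin value differ between the same cohorts, and their part was not tested.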

How the results depend on the processing

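Drinkers minus controls on the 5 probesets annotated as USP14 kept its sign with cohort as a block, without cohort 4, with array-median centring, with cohort and the actin value, without cohort 7b and with any array of the groups of 2 to 5 left out (from -1.98 to -1.01). With the HBA value in the model it was 0.0275 on MmuAffx.949.1.S1_x_at (SE 0.35), with the sign turned, -0.14 on MmugDNA.2571.1.S1_at, -0.0041 on MmugDNA.2571.1.S1_s_at, -0.20 on MmugDNA.2571.1.S1_x_at and -0.0077 on MmugDNA.5184.1.S1_s_at. With cohort and HBA it was -0.052, -0.25, -0.079, -0.30 and -0.086 in that order. HBA was chosen after the data were seen, for its likeness to these probesets, so these values are a description and no cause was tested. On the linear scale it was -2.83 on MmugDNA.2571.1.S1_s_at and -2.27 on MmugDNA.5184.1.S1_s_at. The exact permutation test of MmugDNA.2571.1.S1_at between drinkers of cohorts 7a and 7b (-1.29) gave an unadjusted p of 0.0451, against limma adjusted p of 0.207. The change of the difference between cohorts (from -1.11 to 0.87 with an array left out, and from 0.80 to 1.73 with cohort 7a alone against cohort 5, which turned the sign of 3 of the 5) and the correlations between the 5 probesets stayed on their side of the threshold in every alternative run.

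The count of ubiquitin-proteasome genes called higher (3) was 6 with cohort as a block and 6 with cohort and the actin value. The count called lower (11) was 16 and 8 in these models, 5 without cohort 4 and 7 with the probeset of largest SD per gene. With an array left out these counts ranged from 2 to 3 and from 1 to 13. With cohort as a block 2804 probesets were called higher and 5086 lower, against 1326 and 2487. The causes were not tested. No paired analysis was possible because the sample labels do not say which control was matched to which drinker.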
